A study of Caenorhabditis elegans with 104 samples.

Results

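The nuclear genes of the mitochondrial electron transport chain and the ATP synthase were followed over adult age in single worms of *Caenorhabditis elegans*. The set holds 36 genes that were chosen by sequence name for their known place in complexes I to V or in ubiquinone synthesis, and all 36 were measured among 18889 genes on the arrays. Complex I has 11 of them, complex II has 4, complex III with cytochrome c has 7, complex IV has 5, complex V has 8, and clk-1 stands for ubiquinone synthesis. The RefSeq gene table, searched by the same sequence names, gave a name for each of the 36, and probe sequences were not checked. Of the 36, 34 were read by 1 probe, and nuo-4 and ucr-2.1 by 3 probes each. Subunits encoded by mitochondrial DNA were not analysed here.

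Each array compared the RNA of 1 wild-type (N2) worm, labelled with Cy5, with a pool of RNA from 15 worms aged 4 days, labelled with Cy3. All worms came from eggs laid within 2 hours, grew at 20 °C on 7 plates of 100 worms with OP50 bacteria, were moved away from their progeny, and were picked at random, 20 at each age, filmed on a plate without food and frozen singly. After 2 rounds of linear amplification and the removal of samples that failed quality control, there were 13 worms of day 4, 17 of day 8, 17 of day 12, 17 of day 14, 17 of day 16, 14 of day 20 and 9 of day 24. All groups share strain, food and temperature and differ in age alone as far as the labels say. Because the worms of an age were harvested together from a single cohort, an effect of age and one of its harvest day cannot be told apart.

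A value is the log2 ratio of a worm over the pool, 0 meaning equal to the pool and 1 meaning 2-fold higher. The log base and the direction, Cy5 over Cy3, are those that the named software gives by default and are not stated for these files, and every rise would read as a fall if the ratio ran the other way. Ratios carry no level, so genes cannot be ranked by abundance. Without a dye swap, dye and sample cannot be told apart in the ratio itself, while differences between ages use 1 dye. RNA came from whole worms, in which fewer cells of a type and less RNA per cell cannot be told apart.

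Complexes I and II pass electrons from NADH and from succinate to ubiquinone, complex III passes them on to cytochrome c, and complex IV hands them to oxygen. Complexes I, III and IV pump protons across the inner membrane, and the ATP synthase, complex V, lets them flow back to make ATP. In *C. elegans* these genes are known from ageing research: reduced function of isp-1, nuo-6 or clk-1, or RNA interference against nuo-2, cyc-1, cox-5B or atp-3 during larval growth, lengthens life, while mutants of mev-1 and gas-1 are sensitive to oxygen and short-lived.

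Over the whole age range the 36 genes did not move as a block. A slope of the log2 ratio over age was fitted to all worms with limma, and a gene was called where its p, adjusted by Benjamini-Hochberg over all 18889 genes, was under 0.05. Of the 36 genes, 10 rose with age and 3 fell. The background was 13.7% of all genes called higher and 14.2% called lower. The share of the set called higher lay above that background and the share called lower lay below it, which is a description, since the members were chosen with results known. The median slope of the 36 was 0.0087 per day, against 0.00018 for all genes. A moderated F test over the 7 ages called 16 of the 36, where it called 33% of all genes. Both tests called 11 genes, the F test alone called 5 (nuo-6, lpd-5, ucr-2.1, ucr-2.3 and asb-1), the slope alone called nuo-4 and cox-5A, and neither called the other 18. Among days 12 to 24 alone, with fewer worms, the slope called 2 genes higher, nuo-1 and asb-1, and 0 lower. No share over all genes is given for that fit, so these counts have no background here.

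**Figure D1:**
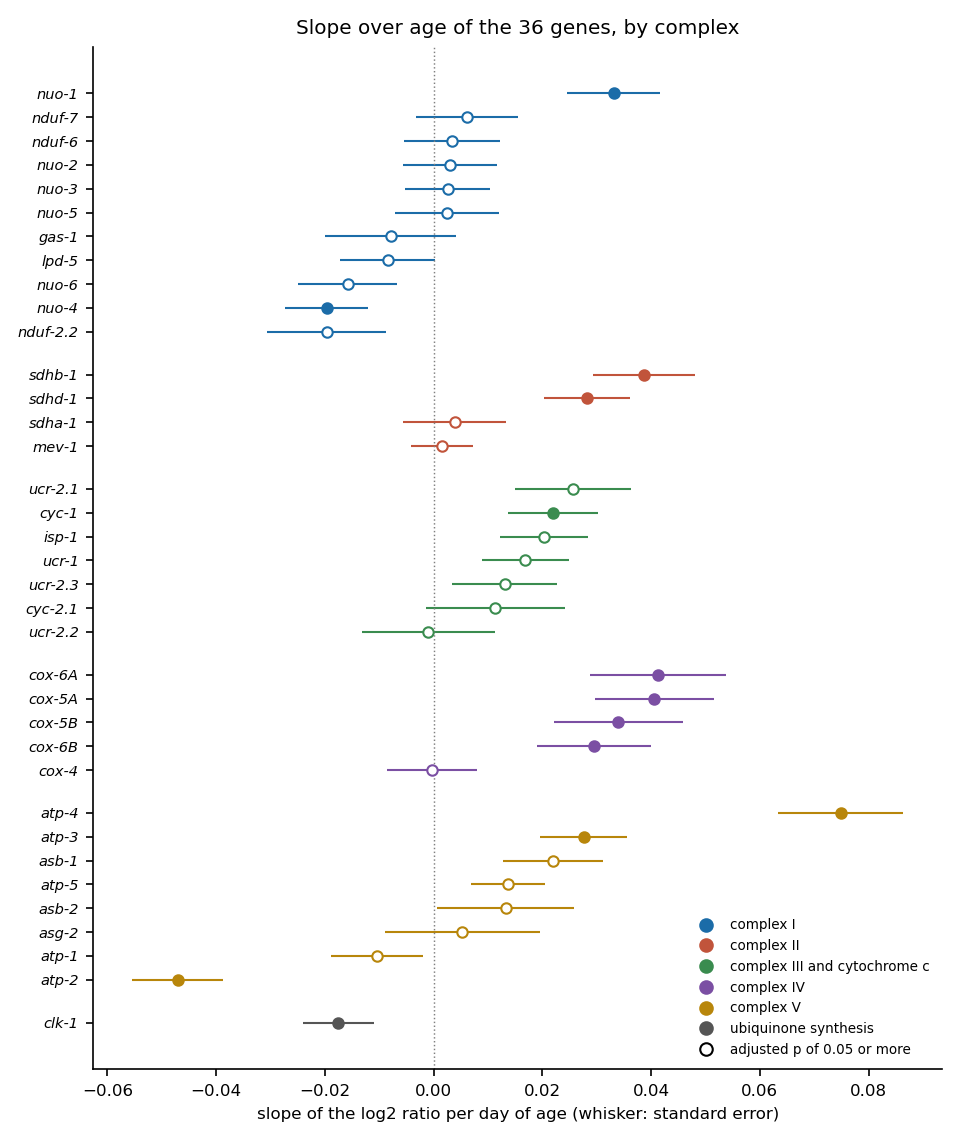
Slope of the log2 ratio per day of age for each of the 36 genes, grouped by complex, with the standard error as whisker; filled points have an adjusted p under 0.05 (limma, all worms). The gene atp-4 has the steepest rise (0.075 per day) and atp-2 the steepest fall (-0.047 per day), and 4 of 5 complex IV genes are filled on the right of 0.

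In the ATP synthase, 2 of 8 genes rose with age and 1 fell (13.7% of all genes were called higher and 14.2% lower). The steepest rise and the steepest fall of all 36 genes were both here. The counts for each complex rest on few genes and are descriptions. The gene atp-4 (T05H4.12) encodes coupling factor 6 of the stalk. Its ratios ran from -1.07 to 1.85 with a median of -0.23 at day 4, from -1.31 to 0.71 with a median of -0.45 at day 8, and from -0.85 to 1.64 with a median of 0.50 at day 12. They ran from -0.89 to 1.84 with a median of 0.42 at day 14, from -0.49 to 1.25 with a median of 0.97 at day 16, from 0.25 to 2.03 with a median of 1.08 at day 20, and from 0.03 to 1.37 with a median of 1.00 at day 24. Every worm of days 20 and 24 was above the day 4 median and above the pool, yet the ranges overlapped, and 1 day 4 worm reached 1.85. The slope of atp-4 was 0.075 ± 0.012 per day (SE; limma adjusted p = 1.2e-07). Its mean was 2.27-fold higher at day 20 than at day 4, a log2 difference of 1.18 ± 0.25 (SE; limma adjusted p = 0.00011). At day 24 it was 1.89-fold higher than at day 4 (log2 difference 0.91 ± 0.28, limma adjusted p = 0.012).

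The gene atp-2 (C34E10.6), which encodes the catalytic beta subunit, took the opposite course. Its ratios ran from -1.104 to 1.403 with a median of 0.51 at day 4, from -0.16 to 0.89 with a median of 0.27 at day 8, and from -0.96 to 0.73 with a median of -0.05 at day 12. They ran from -0.82 to 0.70 with a median of -0.45 at day 14, from -1.08 to 0.77 with a median of -0.28 at day 16, from -0.98 to 0.27 with a median of -0.40 at day 20, and from -1.03 to 0.00 with a median of -0.31 at day 24. All 14 worms of day 20 and all 9 of day 24 lay below the day 4 median, inside the wide range of day 4. The slope was -0.047 ± 0.0084 per day (SE; limma adjusted p = 4.3e-06), and atp-2 was lower than at day 4 at days 12, 14, 16, 20 and 24, comparisons that share the 13 day 4 worms. At day 24 the difference from day 4 was -0.74 ± 0.21 (SE; limma adjusted p = 0.0084), a mean 0.601 times that of day 4. At day 8 the difference was -0.07 and did not pass (limma adjusted p = 0.88).

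Taken within each worm, atp-4 minus atp-2 averaged -0.42 ± 1.22 at day 4 (SD, n = 13), -0.79 ± 0.72 at day 8 (n = 17), 0.54 ± 1.04 at day 12 (n = 17), 0.77 ± 0.94 at day 14 (n = 17), 0.86 ± 1.00 at day 16 (n = 17), 1.57 ± 0.68 at day 20 (n = 14) and 1.23 ± 0.62 at day 24 (n = 9). The difference was above 0 in 6 of 13 worms at day 4, in 2 of 17 at day 8, and in all 14 and all 9 worms at days 20 and 24. The pair was singled out for its opposite slopes, so these differences are a description.

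**Figure D2:**
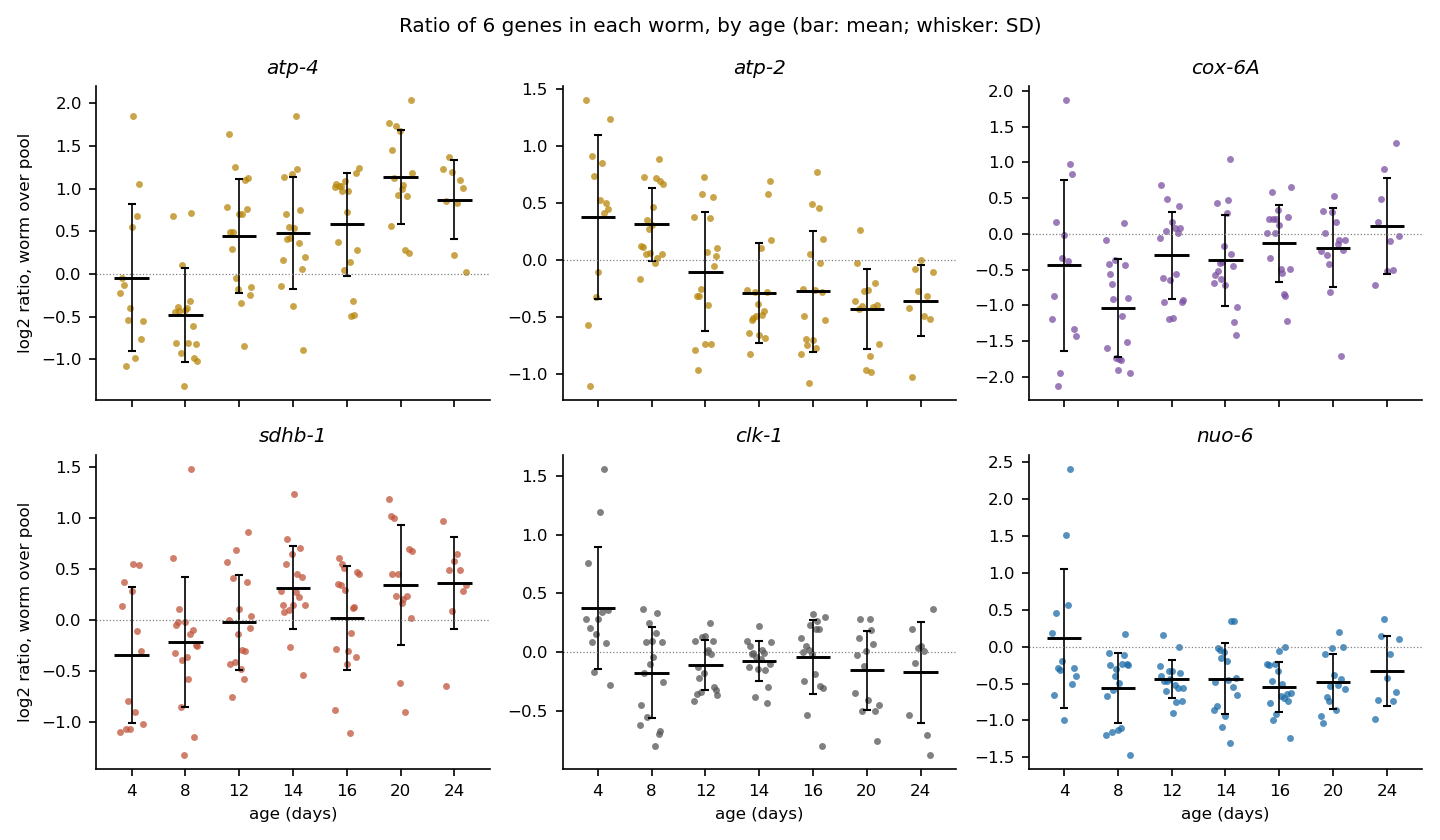
Log2 ratio of each worm over the pool at each age for atp-4, atp-2, cox-6A, sdhb-1, clk-1 and nuo-6, 1 point per worm, with the mean as bar and the SD as whisker. The worms of days 20 and 24 lie above the pool in atp-4, most lie below it in atp-2, and the day 4 worms are the most widely spread group in cox-6A and nuo-6.

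The other ATP synthase genes changed less. The gene atp-3, for the oligomycin sensitivity subunit that links the stalk to the catalytic head, rose with a slope of 0.028 ± 0.0079 per day (SE; limma adjusted p = 0.0046). Its ratios ran from -0.62 to 0.59 with a median of -0.20 at day 24, against -1.36 to 0.42 with a median of -0.57 at day 4, and 8 of 9 day 24 worms exceeded the day 4 median. The rise of atp-3 came by day 12, where it was 0.50 above day 4 (limma adjusted p = 0.019), and days 12 to 24 alone gave a slope of -0.0036. The gene atp-1, for the alpha subunit that forms the head together with the beta subunit, had a slope of -0.010 that did not pass (limma adjusted p = 0.40), and a difference of -0.49 at day 24 (limma adjusted p = 0.10). The slopes of atp-5 (0.014), asb-1 (0.022), asb-2 (0.013) and asg-2 (0.0053), for further subunits of the stalk and the membrane part, did not pass either. For asb-1 the F test passed (limma adjusted p = 0.034). Its median ratio was -0.08 at day 24 (lowest -0.82, highest 0.69), against -0.79 at day 4 (lowest -1.69, highest 1.00), and without day 4 its slope was 0.044 (limma adjusted p = 0.00047).

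In complex IV, cytochrome c oxidase, 4 of 5 genes rose with age (13.7% of all genes were called higher). These were cox-5A, cox-5B, cox-6A and cox-6B, and cox-4 did not pass (slope -0.00025). The ratios of cox-6A (F54D8.2) ran from -2.13 to 1.87 with a median of -0.37 at day 4, from -1.94 to 0.16 with a median of -0.91 at day 8, from -1.19 to 0.69 with a median of -0.05 at day 12, and from -0.71 to 1.27 with a median of -0.03 at day 24. Day 8 was the low point of this gene and the ranges of all ages overlapped that of day 4. Its slope was 0.041 ± 0.013 per day (SE; limma adjusted p = 0.0075). The gene cox-5A had a slope of 0.041 ± 0.011 per day (SE; limma adjusted p = 0.0024), with a median of 0.26 at day 24 (lowest -1.09, highest 0.96), against -0.62 at day 4 (lowest -2.06, highest 0.91). For cox-5A, and likewise for cox-5B, 8 of 9 day 24 worms exceeded the day 4 median. For cox-6A and for cox-6B 6 of 9 did, and for cox-4 4 of 9. At days 12 and 14, 6 of 17 worms exceeded it for cox-6B at each age. The slopes of cox-5B and cox-6B were 0.034 ± 0.012 (SE; limma adjusted p = 0.022) and 0.030 ± 0.011 (SE; limma adjusted p = 0.026). The medians of cox-5B were -0.14 at day 24 (lowest -0.999, highest 0.63) and -0.49 at day 4 (lowest -2.14, highest 1.12). Those of cox-6B were 0.89 at day 24 (lowest 0.26, highest 1.80) and 0.69 at day 4 (lowest -0.57, highest 2.56). No gene of the complex passed for day 24 against day 4, where the differences ran from 0.15 to 0.65. The call of cox-6B ended without day 24 worm 8 (limma adjusted p = 0.0501), without day 24 (0.10) and after quantile normalization (0.082), and that of cox-5B ended without day 24 (0.057).

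In complex II, succinate dehydrogenase, 2 of 4 genes rose (13.7% of all genes were called higher). These were sdhb-1, for the iron-sulphur subunit, and sdhd-1, for 1 of the membrane anchors. The ratios of sdhb-1 (F42A8.2) ran from -0.65 to 0.97 with a median of 0.49 at day 24, against -1.097 to 0.55 with a median of -0.30 at day 4. Above the day 4 median were 8 of 9 day 24 worms, and 3 exceeded every day 4 worm. Its slope was 0.039 ± 0.0094 per day (SE; limma adjusted p = 0.00068), and its mean was 1.63-fold higher at day 24 than at day 4 (log2 difference 0.70 ± 0.24, limma adjusted p = 0.028). For sdhd-1 the ratios ran from -0.17 to 1.42 with a median of 0.65 at day 24, against -0.81 to 0.87 with a median of 0.00 at day 4. Its slope was 0.028 ± 0.0079 per day (SE; limma adjusted p = 0.0035), and its mean was 1.46-fold higher at day 24 (log2 difference 0.55 ± 0.20, limma adjusted p = 0.042). Both slopes kept their calls when any 1 worm of days 4, 8 or 24 was left out. The day 24 call of sdhb-1 ended without day 4 worm 1, 4, 6 or 13 or day 24 worm 1 or 6 (limma adjusted p up to 0.071). That of sdhd-1 ended in 13 of 39 such fits (limma adjusted p up to 0.12).

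The 2 remaining complex II genes showed no called change. For sdha-1, the flavoprotein subunit, the slope was 0.0039 and the difference at day 24 was -0.12. For mev-1, the cytochrome b subunit, the slope was 0.0015 (limma adjusted p = 0.88), with ratios from -0.37 to 0.22 and a median of -0.22 at day 24, against -0.75 to 0.60 and a median of -0.11 at day 4. The SE of the mev-1 slope, 0.0058 per day, was the smallest of the 36.

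Complex III and cytochrome c had 6 of 7 slopes above 0, of which that of cyc-1, the cytochrome c1 gene, passed. This count is near the share of all genes called higher (13.7%). The ratios of cyc-1 (C54G4.8) ran from -0.37 to 0.49 with a median of 0.19 at day 24, against -0.94 to 0.78 with a median of -0.09 at day 4, and 7 of 9 day 24 worms exceeded the day 4 median. The slope was 0.022 ± 0.0082 per day (SE; limma adjusted p = 0.035), and it ended as a call without day 4 worm 3, 4 or 13 or day 24 worm 1 or 4 (limma adjusted p from 0.0501 to 0.059) and without day 24 (0.13). The Rieske iron-sulphur gene isp-1 had a slope of 0.020 ± 0.0081 (SE; limma adjusted p = 0.051), just outside the threshold. It was above the pool in all 9 worms of day 24 (lowest 0.67, median 0.97, highest 1.82) and in all 13 of day 4 (lowest 0.19, median 0.43, highest 1.87). The cytochrome c gene cyc-2.1 (slope 0.011) and the core protein genes ucr-1 (0.017), ucr-2.1 (0.026), ucr-2.2 (-0.00097) and ucr-2.3 (0.013) did not pass over the trend.

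Of the 3 genes of the ucr-2 family, for the second core protein, ucr-2.1 and ucr-2.3 were called against day 4 at different ages. Compared with each other within worms at days 8 and 24 against day 4, no pair passed (permutation adjusted p from 0.085 to 0.84). Day 12 was not compared in this way. For ucr-2.1 the ratios ran from -0.69 to 1.79 with a median of 0.45 at day 12, against -0.82 to 0.35 with a median of -0.45 at day 4, a log2 difference of 0.71 ± 0.22 (SE; limma adjusted p = 0.012). Of its 3 probes, 2 were higher at day 12 (log2 differences 1.15 and 1.00, limma adjusted p = 0.0050 and 0.018) and the other one gave -0.02 (limma adjusted p = 0.97). The slopes of the same probes were 0.040 (limma adjusted p = 0.044), 0.035 (0.089) and 0.0016 (0.94). For ucr-2.3 the ratios ran from -2.29 to -0.44 with a median of -1.41 at day 8, against -2.51 to 0.57 with a median of -0.55 at day 4, a log2 difference of -0.75 ± 0.19 (SE; limma adjusted p = 0.0043). For ucr-2.2 the median was -0.01 at day 24 (lowest -1.87, highest 0.36) and 0.01 at day 4 (lowest -1.36, highest 2.16), and neither the slope nor the F test passed (limma adjusted p = 0.97 and 0.96).

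In complex I, NADH dehydrogenase, nuo-1 rose, nuo-4 fell and 9 of 11 genes did not pass over the trend. Neither direction exceeded its share of all genes (13.7% higher and 14.2% lower). The gene nuo-1 (C09H10.3) encodes the subunit that binds NADH and flavin. Its ratios ran from 0.03 to 1.06 with a median of 0.62 at day 24, against -1.15 to 1.26 with a median of -0.05 at day 4. All 9 worms of day 24 and all 14 of day 20 were above the pool and above the day 4 median. The slope of nuo-1 was 0.033 ± 0.0086 per day (SE; limma adjusted p = 0.0015), and the difference at day 24 was 0.57 ± 0.21 (SE; limma adjusted p = 0.052). For nuo-4, an accessory subunit, the ratios ran from -0.54 to 0.20 with a median of -0.10 at day 24, against -0.81 to 1.09 with a median of 0.30 at day 4. Its slope was -0.020 ± 0.0076 per day (SE; limma adjusted p = 0.043). This call ended in 15 of 39 fits without 1 worm (day 4 worms 2, 4, 5, 6, 8, 9, 11 and 12, day 8 worms 1, 2, 11, 15 and 16, and day 24 worms 1 and 6; limma adjusted p up to 0.089), and 1 of its 3 probes passed alone.

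The paralogues gas-1 and nduf-2.2, for the same core subunit of complex I, had slopes of -0.0079 and -0.020 that did not pass. For gas-1 the median ratio was -0.58 at day 24 (lowest -1.92, highest 0.08), against -0.06 at day 4 (lowest -1.95, highest 0.55). For nduf-2.2 it was -0.01 at day 24 (lowest -1.42, highest 0.72), against -0.26 at day 4 (lowest -1.32, highest 1.02). At days 12 and 16 nduf-2.2 was lower than at day 4 (log2 differences -0.69 and -0.72, limma adjusted p = 0.020 and 0.015). Without day 4 worms 8 and 10 the day 12 call ended (limma adjusted p = 0.062) and the day 16 one was at the threshold (0.0499). With both worms kept and day 24 left out, its slope passed (-0.039, limma adjusted p = 0.016). Of the core subunit genes nuo-5 and nduf-7 and the accessory gene nduf-6, none passed at any age against day 4, and their slopes lay between 0.0025 and 0.0061.

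The ubiquinone gene clk-1 (ZC395.2), whose enzyme carries out the last hydroxylation in ubiquinone synthesis, was called lower than at day 4 at all 6 later ages, and at none of them without day 4 worms 8 and 10 (limma adjusted p from 0.054 to 0.22). Its ratios ran from -0.28 to 1.56 with a median of 0.28 at day 4, from -0.80 to 0.37 with a median of -0.10 at day 8, from -0.42 to 0.25 with a median of -0.12 at day 12, and from -0.88 to 0.36 with a median of 0.01 at day 24. The day 4 worms were high and all later ages stood near 0. The log2 difference was -0.55 ± 0.13 at day 8 (SE; limma adjusted p = 0.0022) and -0.55 ± 0.16 at day 24 (SE; limma adjusted p = 0.0085), and its slope was -0.018 ± 0.0065 per day (SE; limma adjusted p = 0.033). The slope call ended without day 4 worm 2, 8 or 10 or day 24 worm 7 or 8 (limma adjusted p from 0.059 to 0.094). Without day 4 the slope was 0.00011.

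Of the 36 genes 27 had their lowest mean at day 8, an age that held the lowest mean of 19.7% of all genes. The highest mean was at day 24 in 15 of them and at day 4 in 11, the ages that held it for 15.9% and 23.6% of all genes. Against day 4, 0 genes were higher at day 8 and 6 were lower: nuo-2, nuo-3, nuo-6 and lpd-5 of complex I, ucr-2.3 and clk-1. The background was 5.21% of all genes called higher and 6.14% called lower. The median log2 difference of the 36 was -0.29, against 0.00 for all genes, and 33 of 36 were below 0. In a fit of days 8 and 4 alone, with fewer worms and no share over all genes given, 1 gene was lower. The gene nuo-6, an accessory subunit, had ratios from -1.47 to 0.17 with a median of -0.39 at day 8, against -1.0005 to 2.41 with a median of -0.29 at day 4. Its log2 difference was -0.67 ± 0.19 (SE; limma adjusted p = 0.0094), although the medians were close, and 2 day 4 worms, numbered 8 and 10, lay far above the other day 4 worms. For lpd-5, a subunit of the matrix arm, the median was -0.06 at day 8 (lowest -0.90, highest 0.67), against 0.62 at day 4 (lowest -0.60, highest 1.83), and the difference was -0.67 ± 0.18 (SE; limma adjusted p = 0.0051).

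The complex I genes nuo-2 and nuo-3 were called against day 4 at day 8 and at none of the 5 later ages. For nuo-2, a core subunit, the median was -0.87 at day 8 (lowest -1.93, highest 0.27), against -0.38 at day 4 (lowest -1.37, highest 1.34), with a difference of -0.56 ± 0.18 (SE; limma adjusted p = 0.027). This call ended without day 4 worm 1, 3 or 8 or day 8 worm 17 (limma adjusted p from 0.058 to 0.11), and that of nuo-6 without day 4 worm 10 (0.057). For nuo-3, an accessory subunit, the median was -0.60 at day 8 (lowest -1.08, highest 0.35), against -0.16 at day 4 (lowest -0.93, highest 0.80). Its difference of -0.46 was at the threshold (limma adjusted p = 0.0496) and lost its call in 25 of 39 fits without 1 worm (limma adjusted p up to 0.13).

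Most of these day 8 calls ended without 2 of the 13 day 4 worms, numbered 8 and 10. Their mean ratio over the 36 genes was 0.77 and 0.41, and the other 11 day 4 worms lay between -0.65 and 0.07. They also had the highest means of 65 mitochondrial ribosomal genes (1.06 and 1.14) and the lowest means of 11 oocyte and germline genes (-0.74 and -1.01) of that age. The other 11 lay between -0.23 and 0.61 and between -0.73 and 0.44 in these 2 lists. Day 4 worm 5 had an oocyte mean of -0.73, close to that of worm 8, with a mean of -0.37 over the 36 genes. Without them 1 of the 36 genes was lower at day 8, ucr-2.3 (log2 difference -0.60, limma adjusted p = 0.041), where 8.52% of all genes were called in either direction. The difference of clk-1 was then -0.37 (limma adjusted p = 0.055), that of lpd-5 -0.47 (0.078), that of nuo-2 -0.39 (0.18) and that of nuo-6 -0.33 (0.22). The slope of clk-1 became -0.010 (limma adjusted p = 0.22). Without them all 10 rises over the trend were still called and isp-1, ucr-1 and asb-1 were added, 13 in all, and 1 gene fell, atp-2 (slope -0.046, limma adjusted p = 1.3e-05). Of all genes 27.3% were then called over the trend in either direction.

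**Figure D3:**
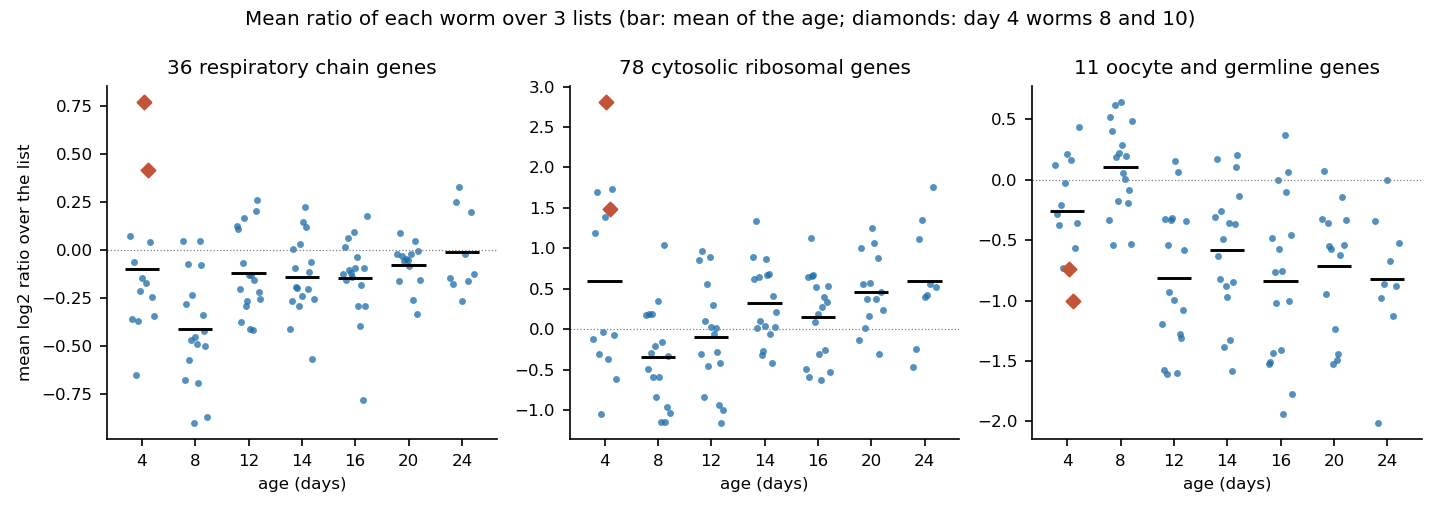
Mean log2 ratio of each worm over the 36 respiratory chain genes, 78 cytosolic ribosomal genes and 11 oocyte and germline genes, by age, 1 point per worm, with the mean of the age as bar and day 4 worms 8 and 10 as diamonds. These worms are at the top of day 4 in the left panel (0.77 and 0.41) and at the bottom of day 4 in the right panel (-0.74 and -1.01), and day 8 has the lowest bar in the left panel (-0.41).

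Other lists moved with day 8. Of 78 cytosolic ribosomal protein genes, a list added after the data had been seen, 51 were lower and 0 higher at day 8 than at day 4. Of 65 mitochondrial ribosomal protein genes 33 were lower and 0 higher. Of all genes 6.14% were lower and 5.21% higher. Day 4 worms 8 and 10, with cytosolic ribosomal means of 2.81 and 1.49, enter these counts, and no fit of these lists without them is given. The cytosolic ribosomal mean ran from -1.15 to 1.05 at day 8 (median -0.33) and from -1.05 to 2.81 at day 4 (median -0.03). The mitochondrial ribosomal mean ran from -0.63 to 0.13 at day 8 (median -0.33) and from -0.23 to 1.14 at day 4 (median 0.14). The mean ratio over the 11 oocyte and germline genes ran from -0.54 to 0.64 in day 8 worms and from -1.01 to 0.44 in day 4 worms, and 2 of the 11 were called higher and 0 lower. Of 11 body wall muscle genes 0 were higher and 6 lower, and their mean averaged -0.94 in day 8 worms (lowest -1.83, highest 0.18) and -0.05 in day 4 worms (lowest -0.84, highest 0.98). Of 10 intestine genes 4 were higher and 0 lower, with a mean of 0.73 in day 8 worms (lowest -0.66, highest 3.23) and -0.15 in day 4 worms (lowest -2.35, highest 1.404). Of 6 hypodermis genes 0 were higher and 2 lower, with a mean of -0.52 in day 8 worms (lowest -1.41, highest -0.05) and -0.04 in day 4 worms (lowest -0.80, highest 0.69). Among 9 neuron genes 2 were higher and 0 lower, among 4 sperm genes 0 were higher and 1 lower, and none of 6 pharynx genes passed. Their part in the day 8 result was not tested.

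Between day 8 and day 12 the direction turned. At day 12, 9 of the 36 genes were higher than at day 8 and 0 were lower, where 7.76% of all genes were called higher and 7.83% lower, and the median difference was 0.28, against 0.02 for all genes. The 9 were nuo-2, cyc-1, ucr-2.1, ucr-2.3, cox-6A, atp-3, atp-4, asb-2 and asg-2. The gene atp-4 differed most, 1.90-fold higher at day 12 than at day 8 (log2 difference 0.92 ± 0.22, limma adjusted p = 0.0013). For asb-2, a membrane-stalk subunit, the medians were -0.24 at day 12 (lowest -1.93, highest 0.78) and -1.37 at day 8 (lowest -2.34, highest 0.40), and the difference was 0.74 ± 0.25 (SE; limma adjusted p = 0.027). These 9 calls do not involve the day 4 worms, although the day 4 worms enter the shared estimate of the spread. Over the same interval 9 of 11 oocyte and germline genes and 7 of 10 intestine genes were lower and 0 genes of either list were higher, and 4 of 78 cytosolic ribosomal genes were higher and 0 lower. The part of these shifts in the result was not tested.

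From day 12 on, few steps between successive ages could be seen in any gene. None of the 36 was called for day 14 against day 12, day 16 against day 14, day 20 against day 16 or day 24 against day 20. At an unadjusted p under 0.05 (limma) there were 0, 0, 3 and 0 of them. Among all genes these steps gave 0%, 0.0159%, 0.254% and 0% called.

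Set against day 4, the calls at later ages were few and went both ways. At day 12, 2 of the 36 were higher and 5 lower (22.7% of all genes were called in either direction), at day 14, 2 were higher and 5 lower (20.1% of all genes), and at day 16, 2 were higher and 5 lower (20.1%). At day 20, 3 were higher and 4 lower (20.5%), and at day 24, 3 were higher, sdhb-1, sdhd-1 and atp-4, and 2 lower, atp-2 and clk-1 (16.5%). These shares lie near the background or below it. In a fit of days 24 and 4 alone, with fewer worms and no share over all genes given, 0 genes were higher and 0 lower. Over the 6 ages 6 genes were higher at 1 age or more, 9 were lower at 1 age or more, 21 at none, and 0 in both directions. For no gene and at no age was there a gap between the range of the older worms and that of the day 4 worms. Without day 4 worms 8 and 10 the lower calls were 0, 2, 3, 1 and 1 at days 12, 14, 16, 20 and 24, and the higher calls 3, 3, 2, 5 and 6. In those fits 19.5%, 17.6%, 18%, 18.8% and 15.1% of all genes were called in either direction. The genes nuo-6 and lpd-5 then had no lower call at any age. The fall of atp-2 at days 14 to 24 remained, with a difference of -0.72 at day 24 (limma adjusted p = 0.016).

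**Figure D4:**
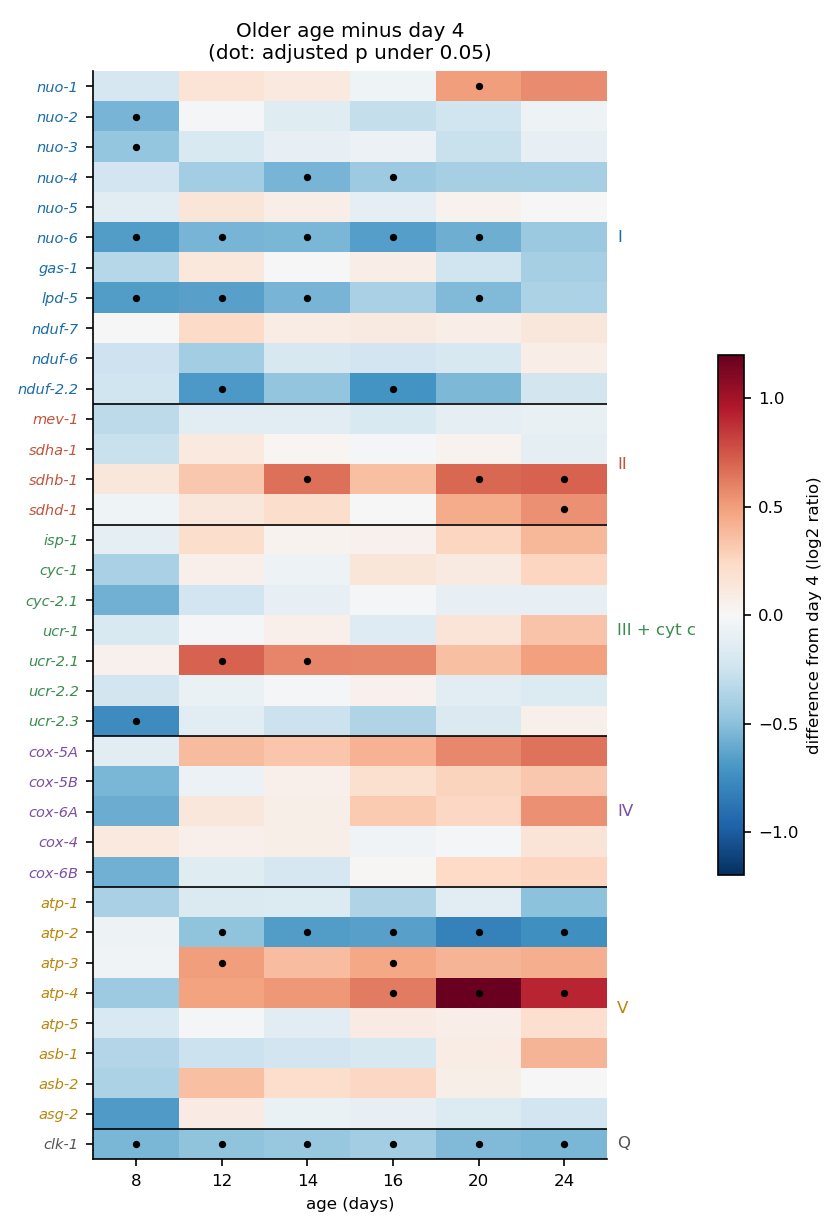
Log2 difference of each older age from day 4 for the 36 genes, grouped by complex (colour, red higher and blue lower than day 4; dots mark an adjusted p under 0.05, limma). The day 8 column is mostly blue (33 of 36 below 0), clk-1 is blue with dots at all ages (calls that end without day 4 worms 8 and 10), and atp-4 turns red and atp-2 blue from day 12.

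The day 4 worms and the pool had the same age, yet 5 of the 36 genes were higher and 8 lower in the day 4 worms than in the pool (18.1% of all genes were called in either direction), with nduf-7 the lowest (log2 ratio -0.80) and cox-6B the highest (0.70). A ratio of 0 is thus not the level of a single young worm, and the day 4 worms were taken as the baseline.

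Pairs of paralogues were compared within each worm, 10 comparisons in all, and none passed after Benjamini-Hochberg adjustment. The difference ucr-2.1 minus ucr-2.2 averaged 0.43 ± 0.40 at day 24 (SD, n = 9) and -0.23 ± 0.84 at day 4 (SD, n = 13), a shift of 0.66 (two-sided exact permutation p = 0.015, adjusted 0.085). The difference ucr-2.1 minus ucr-2.3 averaged 1.18 ± 0.91 at day 8 (SD, n = 17) and 0.37 ± 0.81 at day 4 (SD, n = 13), a shift of 0.81 (two-sided permutation p = 0.017, adjusted 0.085). For asb-1 minus asb-2, of which asb-1 is known as the germline form in *C. elegans*, the means were 0.64 ± 0.89 at day 24 (SD, n = 9) and 0.22 ± 0.86 at day 4 (SD, n = 13), with an exact permutation p = 0.29 (adjusted 0.57). For gas-1 minus nduf-2.2 the means were -0.37 ± 1.12 at day 24 (SD, n = 9) and -0.20 ± 0.97 at day 4 (SD, n = 13), with an exact permutation p = 0.71 (adjusted 0.84).

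Within an age, the ratios of these genes were less spread than those of most genes. The SD between worms of the same age had a median of 0.51 over the 36 genes, against 0.80 over all genes. It was highest for asg-2 (0.82), near the middle of all genes, and lowest at 0.31. Measurement noise and differences between worms both enter this SD and cannot be told apart here. The cox genes varied together. Over all worms, as deviations from the mean of their age, the 10 pairs of complex IV genes had a median Pearson r of 0.61, from 0.28 to 0.81, against 0.17 over all 630 pairs of the set and -0.58 to 0.83 as its range. Within complex I the median r was 0.18 (55 pairs) and within complex V 0.22 (28 pairs). The highest pair was asb-2 with asg-2 (r = 0.83), and atp-4 with atp-2 had r = -0.36, a negative relation between worms of 1 age too. The gene atp-2 (r = -0.07) and nuo-4 (r = -0.19) alone of the 36 had a negative r with the mean of the other 35. These correlations share arrays and amplification and are descriptions.

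Each gene was also set against the mean of 11 oocyte and germline genes and of 78 cytosolic ribosomal genes in the same worm, again as deviations from the mean of the age (all worms, 72 relations, permutation p adjusted over all 72). The ribosomal list was added after the data had been seen, and the adjustment does not cover the choice of these 2 lists. The mean of the 36 genes had an r of -0.42 with the oocyte mean and 0.47 with the ribosomal mean. With the intestine, neuron, muscle, hypodermis, pharynx and sperm means it was 0.28, 0.27, 0.17, 0.06, 0.01 and -0.09. Those lists were not tested gene by gene. With the oocyte mean, 14 of the 36 genes had a negative and 4 a positive relation that passed, all of them with an r of 0.284 or more in size. Of 14056 genes outside the oocyte list measured in every worm, 17.7% had such an r below 0 and 14.98% above 0, so the share of positive relations among the 36 lay near the background and that of negative ones above it, as a description. The most negative was asg-2 (Pearson r = -0.65, Spearman rho = -0.63, permutation p = 1e-05, the smallest that 100000 resamples give, adjusted 4e-05), with r = -0.66 without the 2 worms farthest from the median of the oocyte mean and r from -0.75 to -0.44 within the 7 ages. The most positive was nduf-2.2 (r = 0.60, rho = 0.58, permutation p = 1e-05, adjusted 4e-05, r = 0.57 without 2 worms, 0.01 to 0.79 within ages). Its paralogue gas-1 had r = -0.60 (rho = -0.59, permutation p = 1e-05, adjusted 4e-05, r = -0.61 without 2 worms, -0.81 to 0.04 within ages). The pair atp-4 and atp-2 was also on opposite sides, with r = -0.50 (rho = -0.50, r = -0.54 without 2 worms, -0.77 to -0.06 within ages) and r = 0.49 (rho = 0.48, r = 0.47 without 2 worms, -0.16 to 0.76 within ages), each with a permutation p of 1e-05 (adjusted 4e-05). The other paralogues were not on opposite sides. For asb-2 and ucr-2.1 r was -0.57 and -0.62 (permutation p adjusted 4e-05 each). For asb-1, the germline form, it was -0.12 and did not pass (permutation p adjusted 0.29). Those of ucr-2.2 (-0.10) and ucr-2.3 (-0.02) did not pass either (permutation p adjusted 0.36 and 0.87).

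With the cytosolic ribosomal mean 17 relations that passed were positive and 1, that of nuo-4, was negative, and the smallest r among them was 0.238 in size. Counted by that size alone, 19 of the 36 genes were positive and 1 negative, against 10.04% and 11.1% of 13989 genes outside the ribosomal list. The strongest was that of cox-6A (r = 0.61, rho = 0.54, permutation p = 1e-05, adjusted 4e-05), with r = 0.54 without the 2 farthest worms and r from 0.14 to 0.88 within ages. The genes cox-5A, cox-5B, cox-6B and cyc-2.1 followed with r from 0.52 to 0.56, positive in all 7 ages. Others that passed were less even. The r of sdhb-1 ran from -0.30 to 0.90 within ages and was positive in 4 of 7, and the rho of sdhd-1 did not pass (permutation p adjusted 0.082). The mean of the 36 genes had r = 0.73, 0.57 and 0.79 with the ribosomal mean at days 4, 8 and 24. At days 12, 14, 16 and 20 it was 0.04, 0.30, 0.23 and 0.32. Day 4 worms 8 and 10 enter the day 4 value, with means of 0.77 and 0.41 over the 36 genes and 2.81 and 1.49 over the ribosomal list. No value without them is given, and the day 24 value rests on 9 worms. The 2 values of a worm come from the same array, so amplification and normalization of that array enter both.

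**Figure D5:**
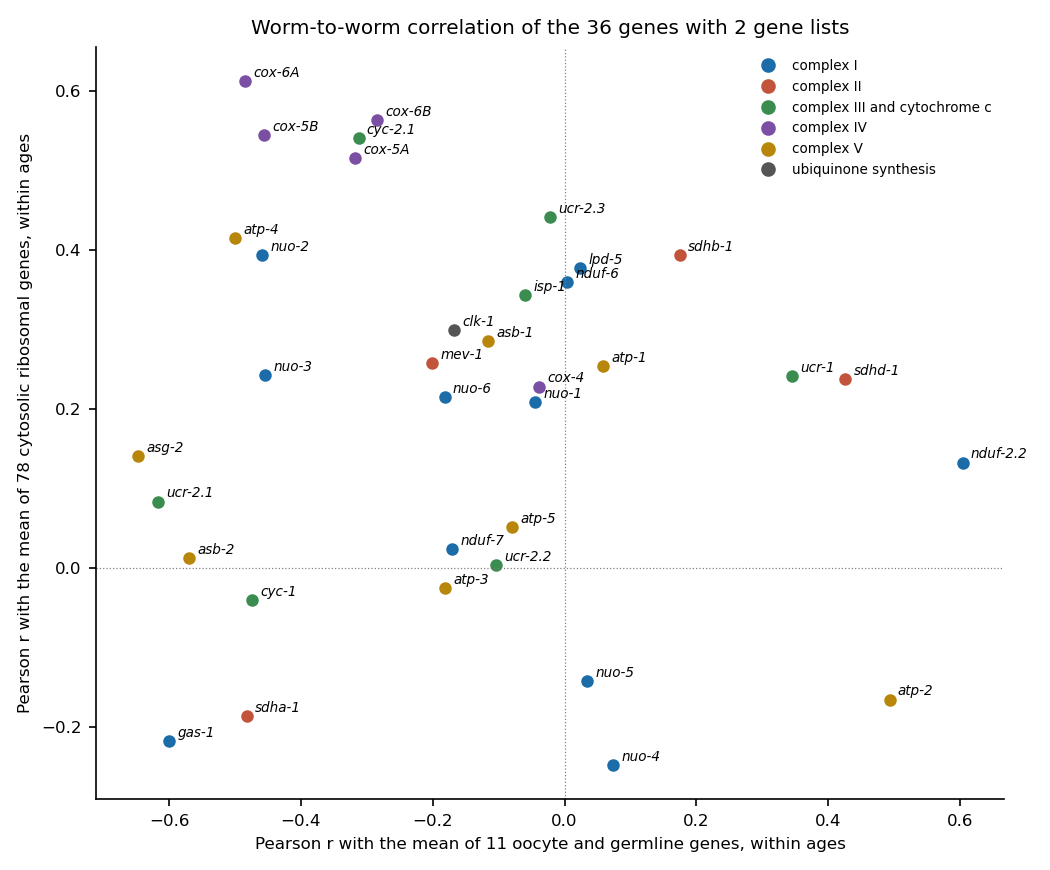
Pearson r of each of the 36 genes with the mean of 11 oocyte and germline genes (horizontal) and with the mean of 78 cytosolic ribosomal genes (vertical), over all worms as deviations from the mean of their age. Complex IV genes other than cox-4 lie at the upper left, nduf-2.2 and atp-2 on the right (0.60 and 0.49), and gas-1, asb-2, ucr-2.1 and asg-2 on the left (-0.57 to -0.65).

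Genes of the same pathway outside the set gave a similar mixture. Of 35 other nuclear subunits of complexes I to V, 8 rose over age and 2 fell. For this list and those that follow, the background was 13.7% of all genes called higher and 14.2% called lower. The steepest rise was that of C16A3.5 (slope 0.077 ± 0.012 per day, SE, limma adjusted p = 5.8e-08), followed by ndub-10 (0.050 ± 0.0090, limma adjusted p = 5.2e-06). The gene sdha-2, a second gene for the flavoprotein of complex II, fell (-0.053 ± 0.0097, limma adjusted p = 7.7e-06). Its ratios ran from -2.24 to -0.93 with a median of -1.31 at day 24, against -1.62 to 0.15 with a median of -0.36 at day 4.

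Of 11 assembly factor genes 0 rose and 4 fell, among them cox-17 (slope -0.036), cox-19 (-0.032) and cox-18 (-0.028), all 3 of complex IV assembly. The gene cox-17, for a copper chaperone of complex IV, was lower at day 24 than at day 4 by a log2 difference of -0.97 (limma adjusted p = 0.0026). Of 7 further ubiquinone genes coq-3 rose (slope 0.065, limma adjusted p = 1.1e-06), and 3 fell, among them coq-5 (-0.061, limma adjusted p = 1.4e-05) and coq-8 (-0.037, limma adjusted p = 0.00015). In the RefSeq table coq-3 is next to nuo-3, which had a slope of 0.0026, and the within-age r of these neighbours was 0.44. Another such pair was cox-6B (slope 0.030) and nduc-2 (slope 0.0069, limma adjusted p = 0.57), with a within-age r of 0.63. Of 7 genes for ATP/ADP carriers and ATPase inhibitors, ant-1.3 (0.040) and mai-2 (0.028) rose and ant-1.1 fell (-0.052, limma adjusted p = 2.3e-05).

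Of 12 protein import genes timm-23 rose (0.030) and tin-44 fell (-0.068, limma adjusted p = 2.0e-08). Of 8 genes of the mitochondrial unfolded protein response 0 rose and hsp-60, the matrix chaperonin, fell (-0.056, limma adjusted p = 0.0024). Mitochondrial ribosomal protein genes leaned down, with 4 of 65 higher and 23 lower over the trend. The median slope was -0.014 per day in that list and 0.0087 in the 36 genes.

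Marker lists of tissues moved over the same ages. Over the trend, 9 of 10 intestine genes, 8 of 11 oocyte and germline genes and 5 of 11 body wall muscle genes fell and 0 genes of these lists rose. Of the neuron list 4 of 9 rose and 0 fell, and of pharynx 1 of 6 rose, of sperm 1 of 4 rose and of hypodermis 1 of 6 fell. As examples, the slopes were -0.090 for ges-1 of the intestine, -0.058 for glp-1 of the germline, -0.084 for unc-54 of muscle and 0.037 for unc-119 of neurons. The mean ratio over the oocyte list ran from -2.01 to 0.00 in day 24 worms and from -1.01 to 0.44 in day 4 worms. Their part in the slopes of the 36 genes was not tested.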

How the data were processed

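The authors measured the RNA of single worms on 2-colour arrays, and the deposited values are taken as log2 ratios of worm over pool. The submitters' processing notes name limma without a version. The normalization, the log base, the background correction and the ratio's direction were not given in the sources used here. The series table and the value table held identical values, and intensities were not used, so the signal behind a ratio is unknown and precision rests on how many worms each age has. Array medians ran from -0.034 to 0.009 and median absolute deviations from 0.579 to 0.601, and 0.537% of values were missing, none of them in the 36 genes.

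Of 22490 probes, 21382 were matched to RefSeq names (WBcel235, names and gene order only). Probes of a gene were averaged, giving 18889 genes. The members and all lists were chosen with earlier results of these data known. The models, run in limma 3.58.1 under R 4.3.3, were a slope over age, a fit with 7 age means, its F test and contrasts, each adjusted (Benjamini-Hochberg) over all genes, with a threshold of 0.05. Paralogue differences used permutation tests (scipy 1.17.1, exact or with 100000 resamples). Worms are numbered by order of deposit, so the numbers pair nothing. Ranges are printed for the members called over the trend, for those called at day 8 or day 24, for atp-2, atp-4, clk-1, mev-1, gas-1 and isp-1 and for paralogues, and outside the 36 for up to 3 called genes a list with the smallest p. The fits were checked on simulated data with the spread of all genes, which is mostly wider than that of the 36. Slopes of 0.05 and 0.1 per day were called in 45% and 95% of 100 changed genes each. Day 8 differences of 1 and 2 were called in 48% and 96%. Smaller changes, the size of most reported here, were not simulated. The alternatives were quantile normalization, median centring, array weights, a trended robust variance, the median over probes, genes measured on all arrays, other sets of ages and leaving out worms.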

Additional observations from a re-analysis of the deposited data

Results flagged for a closer look

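At day 24, the age with 9 worms, 4 of the 36 genes had 1 worm far from the others, with a gap to the nearest worm of more than 0.493 of the group's range. Chance gives such a gap in about 1 in 20 groups. For ucr-2.2 the lowest worm was at -1.87, with a gap of 0.654 of the range. For cox-5A the lowest was at -1.09 (gap 0.503) and for atp-2 at -1.03 (gap 0.499). For mev-1 the highest worm was at 0.217 (gap 0.517).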

How the results depend on the processing

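No paired analysis was possible because the worm numbers follow the order of deposit. Over the alternatives for counts of the 36 genes, 339 values stayed within 1.5 times the count given and 24 did not. Over the trend, the genes called higher were 2 at days 12 to 24 alone, and the genes called lower were 1 with array weights, 1 without day 4 and 0 at days 12 to 24 alone. With limma fitted to the 2 ages only, 1 gene was lower at day 8, and 0 were higher and 0 lower at day 24, in a fit with fewer worms. No share over all genes is given for the fits on fewer ages. The median over probes left 1 gene higher at day 14, and array weights gave 1 gene lower at day 12 than at day 8. Without day 4 worms 8 and 10, a choice made after seeing the data, the genes called lower were 1 over the trend and 1, 0, 2, 3, 1 and 1 at days 8, 12, 14, 16, 20 and 24, and those called higher were 5 at day 20 and 6 at day 24. Of all genes these fits called 27.3% over the trend and 8.52% to 19.5% at those ages, in either direction. Leaving out single worms of days 4, 8 and 24 gave 9 to 13 genes higher and 1 to 3 lower over the trend, 0 higher and 4 to 9 lower at day 8, and 1 to 4 higher and 2 lower at day 24. Worms of days 12, 14, 16 and 20 were not left out singly.

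Some slopes changed sign. At days 12 to 24 alone the slopes were 0.0069 for nuo-4, 0.028 for nduf-2.2, -0.024 for ucr-2.1, -0.0036 for atp-3 and -0.029 for asb-2. Without day 24 they were 0.0020 for gas-1, -0.00049 for mev-1 and 0.0026 for ucr-2.2. Without day 4 they were 0.0035 for ucr-2.2 and 0.00011 for clk-1, and with array weights 0.0034 for ucr-2.2. The cause was not tested. The 20 alternative values of paralogue differences kept their direction and none passed.

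The limits are that each age is 1 harvest, that the dye was never swapped, that the log base and direction are not stated, and that signal over background is not known for any probe. A slope that did not pass is not shown to be 0.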
